A study of Mus musculus with 8 samples.

Results

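The genes described here encode the AP-1 and small Maf transcription factors: Fos, Fosb, Fosl1, Fosl2, Jun, Junb, Jund, Maff, Mafg and Mafk. They were chosen by name, with earlier results of these data known, so their counts beside all probe sets are descriptions. Every probe set whose annotation gives 1 of these symbols and no other was kept. This took 15 of the 45101 probe sets on the array, for 10 of the 18193 genes with a probe set of their own. Fosl1, Fosl2, Jun, Jund and Mafg have 2 probe sets each and the other genes 1. RNA came from 7438 cells, a line derived from mouse mammary cells that carries a GFP-tagged glucocorticoid receptor (GFP-GR) and a Cherry-tagged estrogen receptor (Cherry-ER), both transgenes under a tetracycline-regulated promoter. All 4 groups carried both receptors, were kept in medium with 10% charcoal-dextran treated serum, and had tetracycline withdrawn 24 h before hormone, the untreated cells included. The groups were untreated cells, cells given 100 nM dexamethasone (Dex, a synthetic glucocorticoid), cells given 100 nM estradiol (E2), and cells given both, each for 2 h and each with 2 arrays. The titles number the arrays 1 and 2 in each group. No label says that these are separate cultures, so the p-values reflect the spread of these arrays alone, which may be technical. For 2 arrays, E2 replicate 2 and Dex+E2 replicate 1, the description names a GR-ChIP experiment although title and treatment place them among the expression arrays. Calls among the 15 probe sets were recomputed without each of them, while results for lists of other genes use all arrays.

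AP-1 is a dimer of a Fos protein and a Jun protein, or of 2 Jun proteins, that binds a short palindrome known as the TPA response element. Fos, Fosb, Jun and Junb are classical immediate early genes, switched on within minutes by growth factors and stress through serum response factor and MAP kinases, whereas Fosl1, Fosl2 and Jund are usually expressed for longer. Fos proteins cannot pair with each other and so need a Jun partner. The glucocorticoid receptor is known to repress many AP-1 driven genes by contact with the dimer, and it also binds much of the genome at sites that AP-1 already occupies, which was described in mammary cells. Small Maf proteins have a DNA-binding zipper but no activation domain. They repress as homodimers and take part in activation when paired with Nrf2 and its relatives at antioxidant response elements.

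Values are log2 signals from robust multi-array averaging (RMA), in which a difference of 1 is a doubling. Within a group the 2 arrays correlated at 0.9961 to 0.9983 over all probe sets, and the SD of their differences was 0.161 in the untreated pair, 0.14 with Dex, 0.166 with E2 and 0.212 with Dex+E2. The Dex+E2 arrays stood furthest apart, with 1249 probe sets differing by over 0.5, against 92 to 305 in the other groups. Markers were set against the mammary label by the percentile of their mean level over the 8 arrays, which is only a rough guide because RMA does not put separate probe sets on one scale, and which does not settle what the cells are. Of 10 epithelial markers, 1 lay above the 75th percentile of all probe sets and 6 lay below the 50th percentile, among them Cdh1 (E-cadherin), with a level of 3.24 in untreated cells. Of 8 mesenchymal markers 6 lay above the 75th percentile, among them Vim (vimentin), with a level of 13.96 in untreated cells, and 0 of 5 milk protein, 0 of 5 immune, 0 of 4 endothelial and 0 of 3 adipocyte markers did. In 0 of these 6 lists was a marker called changed by any treatment against untreated.

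The stretches of DNA just before the transcription starts of Fos, Maff, Jun and Fosl2 are shown because they are among the genes with the largest changes below. They are the 150 bases before the start in the RefSeq promoter table (mouse build GRCm38.p6), and capitals mark matches on either strand to the cyclic AMP response element TGACGTCA, the shorter word TGACG within it, or TGACNTCA, the form that Jun-containing dimers with ATF proteins bind.
Fos, chr12:85473740-85473889 (plus strand): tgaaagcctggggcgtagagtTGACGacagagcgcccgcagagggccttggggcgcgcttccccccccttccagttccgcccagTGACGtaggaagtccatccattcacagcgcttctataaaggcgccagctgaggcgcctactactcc
Maff, chr15:79347370-79347519 (plus strand): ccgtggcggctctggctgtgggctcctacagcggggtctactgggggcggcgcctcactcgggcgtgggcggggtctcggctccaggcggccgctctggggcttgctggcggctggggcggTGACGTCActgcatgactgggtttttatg
Jun, chr4:95052223-95052372 (minus strand): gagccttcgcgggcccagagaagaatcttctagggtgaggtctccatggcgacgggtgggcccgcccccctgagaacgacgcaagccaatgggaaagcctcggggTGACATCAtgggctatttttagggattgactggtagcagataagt
Fosl2, chr5:32136322-32136471 (plus strand): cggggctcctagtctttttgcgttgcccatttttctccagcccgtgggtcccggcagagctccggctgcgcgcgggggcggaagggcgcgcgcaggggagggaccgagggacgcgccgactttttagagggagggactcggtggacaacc
The table held promoters for 9 of the 10 genes, 11 promoters in all because Maff has 3 starts, of which the second is shown. Fosl1 has no entry. Over the 250 bases before the start, searched on both strands, the AP-1 palindrome TGANTCA was present in 0 of the 11 promoters and in 6.75% of all 32851 promoters. The shorter word TGACG was present in 7 of 11, against 17.8% of all promoters, and lay at 2 places in Fos, 129 to 125 and 66 to 62 bases before the start. Maff held the full TGACGTCA 29 to 22 bases before its second start, a word found in 1.55% of all promoters that also contains TGACG. TGACNTCA, which also covers TGACGTCA, was added after these promoters had been read. It occurred in 3 of 11 against 7.49% of all promoters, including TGACATCA 45 to 38 bases before the Jun start. The shown stretch of Fosl2 held none of these words. The glucocorticoid receptor palindrome, GNACA and TGTNC with 3 bases between them, was found in Jund alone of the 11 (0.387% of all promoters), the estrogen receptor palindrome, GGTCA and TGACC with 3 bases between them, in 0 (0.0639%), the CArG box of serum response factor in 0 (1.47%), and the antioxidant response element core TGACNNNGC in 3, those of Maff, Mafg and Mafk (10.2%). These promoters were richer in G and C than most, with a median of 64.0% against 52.4%. A match describes letters in this window and does not show a bound site. Sites further upstream were not searched, so a count of 0 covers this window alone.

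After 2 h of Dex, Maff and Fos rose while Fosl2, Fosl1 and Jun fell. Maff, a small Maf, rose 2.92-fold and Fos 2.30-fold. Fosl2 fell by 1.41 and Fosl1 by 0.74 on the log2 scale, which is 2.66-fold and 1.67-fold. Junb, Jund, Fosb, Mafg and Mafk did not pass the test. In total 5 of the 15 probe sets were called at a limma adjusted p under 0.05 (Benjamini-Hochberg over 45037 probe sets), against 0.924% of all probe sets. Of these, 2 were higher, against 0.575% of all, and 3 were lower, against 0.349%. At an unadjusted p under 0.05 the count was 11 of 15, and 2562 of 45037 (5.69%) over all probe sets. The median size of change was 0.39 over the 15 probe sets and 0.068 over all. The count fell to 3 without Untreated replicate 1 and to 2 (Maff and Fosl2) without Untreated replicate 2, Dex replicate 1 or Dex replicate 2. Without E2 replicate 2 or without Dex+E2 replicate 1 it was 5. In RNA from a whole culture, fewer cells expressing a gene and less RNA per cell cannot be told apart.

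**Figure D1:**
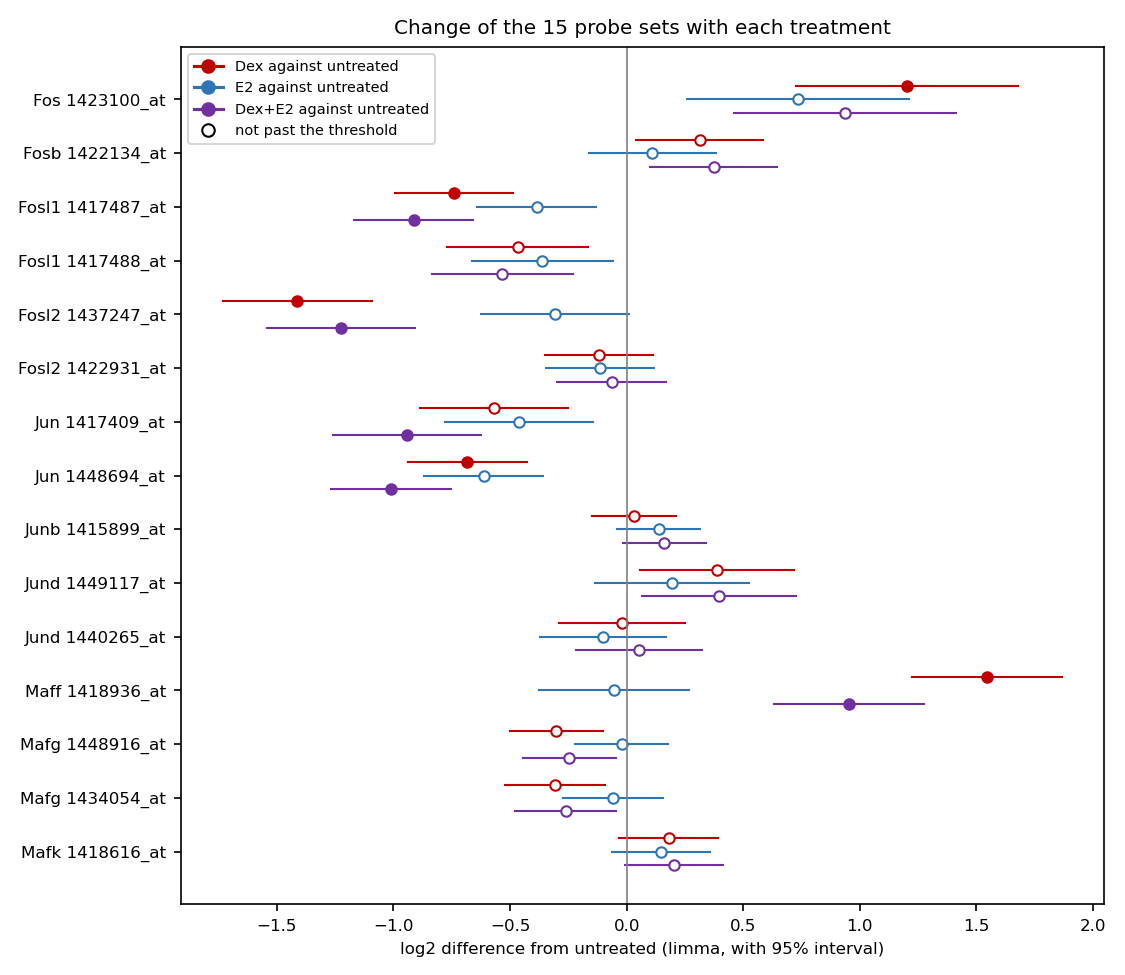
Difference from untreated (log2, horizontal axis) of each of the 15 probe sets with Dex, E2 and Dex+E2, with limma's 95% interval and 2 arrays a group. Filled points passed an adjusted p of 0.05, and open points did not. Maff and Fos lie to the right with Dex and Fosl2, Fosl1 and Jun to the left, while 0 of the E2 points are filled.

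Among the Fos proteins, Fosl2 (also called Fra-2) had the largest decrease. Its brighter probe set, 1437247_at, read 10.52 and 10.37 in untreated cells, 9.12 and 8.94 with Dex, 10.37 and 9.90 with E2, and 9.28 and 9.15 with Dex+E2. All 4 arrays with Dex lay below all 4 without it. The change with Dex was -1.41 ± 0.14 (SE, n = 2 a group), with a limma adjusted p of 0.000675. The dimmer probe set 1422931_at read between 5.69 and 5.93 on all 8 arrays and was not called (-0.12 with Dex), so the 2 probe sets of Fosl2 disagreed.

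Fosl1 (Fra-1), a Fos protein known for its abundance in migrating and transformed cells, fell as well. Probe set 1417487_at read 9.07 and 9.35 untreated, 8.51 and 8.43 with Dex, 8.94 and 8.71 with E2, and 8.34 and 8.26 with both hormones. On this probe set the groups were ordered untreated, E2, Dex, Dex+E2 from high to low with no overlap between neighbours. The change with Dex was -0.74 ± 0.11, with a limma adjusted p of 0.0112. It lost its call without Untreated replicate 2 (-0.60) and without either Dex array, with an adjusted p of up to 0.154. Probe set 1417488_at moved the same way by -0.47 ± 0.14 without passing (adjusted p = 0.320).

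Fos itself went the other way. It read 5.66 and 5.67 untreated, 6.69 and 7.04 with Dex, 6.07 and 6.72 with E2, and 6.34 and 6.86 with Dex+E2. The untreated values lay near the medians of those arrays over all probe sets (5.65 and 5.61), so array background may limit this baseline. Every hormone-treated array lay above both untreated arrays, and the 3 hormone groups overlapped each other, with gaps of up to 0.648 between replicates. The untreated pair differed by far less than any treated pair. The change with Dex was 1.20 ± 0.21, with a limma adjusted p of 0.0259, which missed the threshold without Untreated replicate 1, Untreated replicate 2, Dex replicate 1 or Dex replicate 2 (adjusted p up to 0.325). The size of the change without these arrays ran from 1.03 to 1.38.

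Fosb, the fourth Fos protein, was dim, at the 26.55th percentile of all probe sets by mean level. It read 4.32 and 4.15 untreated and 4.65 and 4.44 with Dex, a difference of 0.31 ± 0.12 (limma adjusted p = 0.717). Array background limits what can be seen for a gene at this level.

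Jun, the founding Jun protein and the usual partner of Fos, was read by 2 probe sets. On 1417409_at it measured 9.76 and 9.84 untreated, 9.28 and 9.19 with Dex, 9.53 and 9.15 with E2, and 9.04 and 8.68 with Dex+E2. On 1448694_at it measured 9.38 and 9.56, then 8.80 and 8.77, 9.01 and 8.69, and 8.50 and 8.41 in the same order. Both probe sets placed every treated array below both untreated arrays, with the Dex+E2 arrays lowest and the Dex and E2 arrays overlapping. With Dex, 1448694_at fell by 0.68 (-0.68 ± 0.12, limma adjusted p = 0.0192), while 1417409_at differed by -0.57 ± 0.14 and was not called (adjusted p = 0.172). The call on 1448694_at was lost without any 1 of the untreated or Dex arrays, with an adjusted p of up to 0.255.

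Junb and Jund, the other Jun proteins, did not pass any test. Junb, often an antagonist of Jun in dimers, read 6.86 and 6.87 untreated, 6.90 and 6.89 with Dex, 6.98 and 7.02 with E2 and 7.01 and 7.04 with both. Its replicates differed by at most 0.0346, the smallest such gap among the 15 probe sets. The difference with Dex was 0.03 ± 0.081, with a 95% interval from -0.15 to 0.21, which leaves out changes of the size seen for Jun. Jund, on its bright probe set 1449117_at at the 97.05th percentile, read 11.33 and 11.13 untreated and 11.87 and 11.36 with Dex. The Dex pair differed by 0.513, and the difference of 0.39 ± 0.15 was not called (limma adjusted p = 0.683). Its other probe set, 1440265_at, read between 4.61 and 5.04 on all arrays.

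Maff had the largest change of the 15 probe sets. It read 7.29 and 7.46 in untreated cells, 8.86 and 8.98 with Dex, 7.08 and 7.56 with E2, and 8.25 and 8.41 with Dex+E2. The groups fell into 3 levels: Dex highest, Dex+E2 next, and untreated and E2 overlapping at the bottom. The change with Dex was 1.55 ± 0.14 (limma adjusted p = 0.000411), and it held its call under every alternative run.

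Mafg and Mafk, which share with Maff the ability to pair with Nrf2, were not called against untreated with any treatment. Mafg read 9.0004 and 9.0064 untreated and 8.66 and 8.74 with Dex on 1448916_at, and 7.83 and 7.91 against 7.64 and 7.48 on 1434054_at. On both probe sets the Dex arrays lay below the untreated arrays without overlap, by -0.30 ± 0.090 and -0.31 ± 0.097, and neither passed (limma adjusted p = 0.354 and 0.424). With both hormones the differences of these Mafg probe sets were -0.25 and -0.26 (adjusted p = 0.469 and 0.472). Mafk read 8.18 and 8.17 untreated and 8.35 and 8.37 with Dex, a difference of 0.18 ± 0.095 with a 95% interval from -0.03 to 0.39. The interval for Mafk ends well below the increase of Maff.

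**Figure D2:**
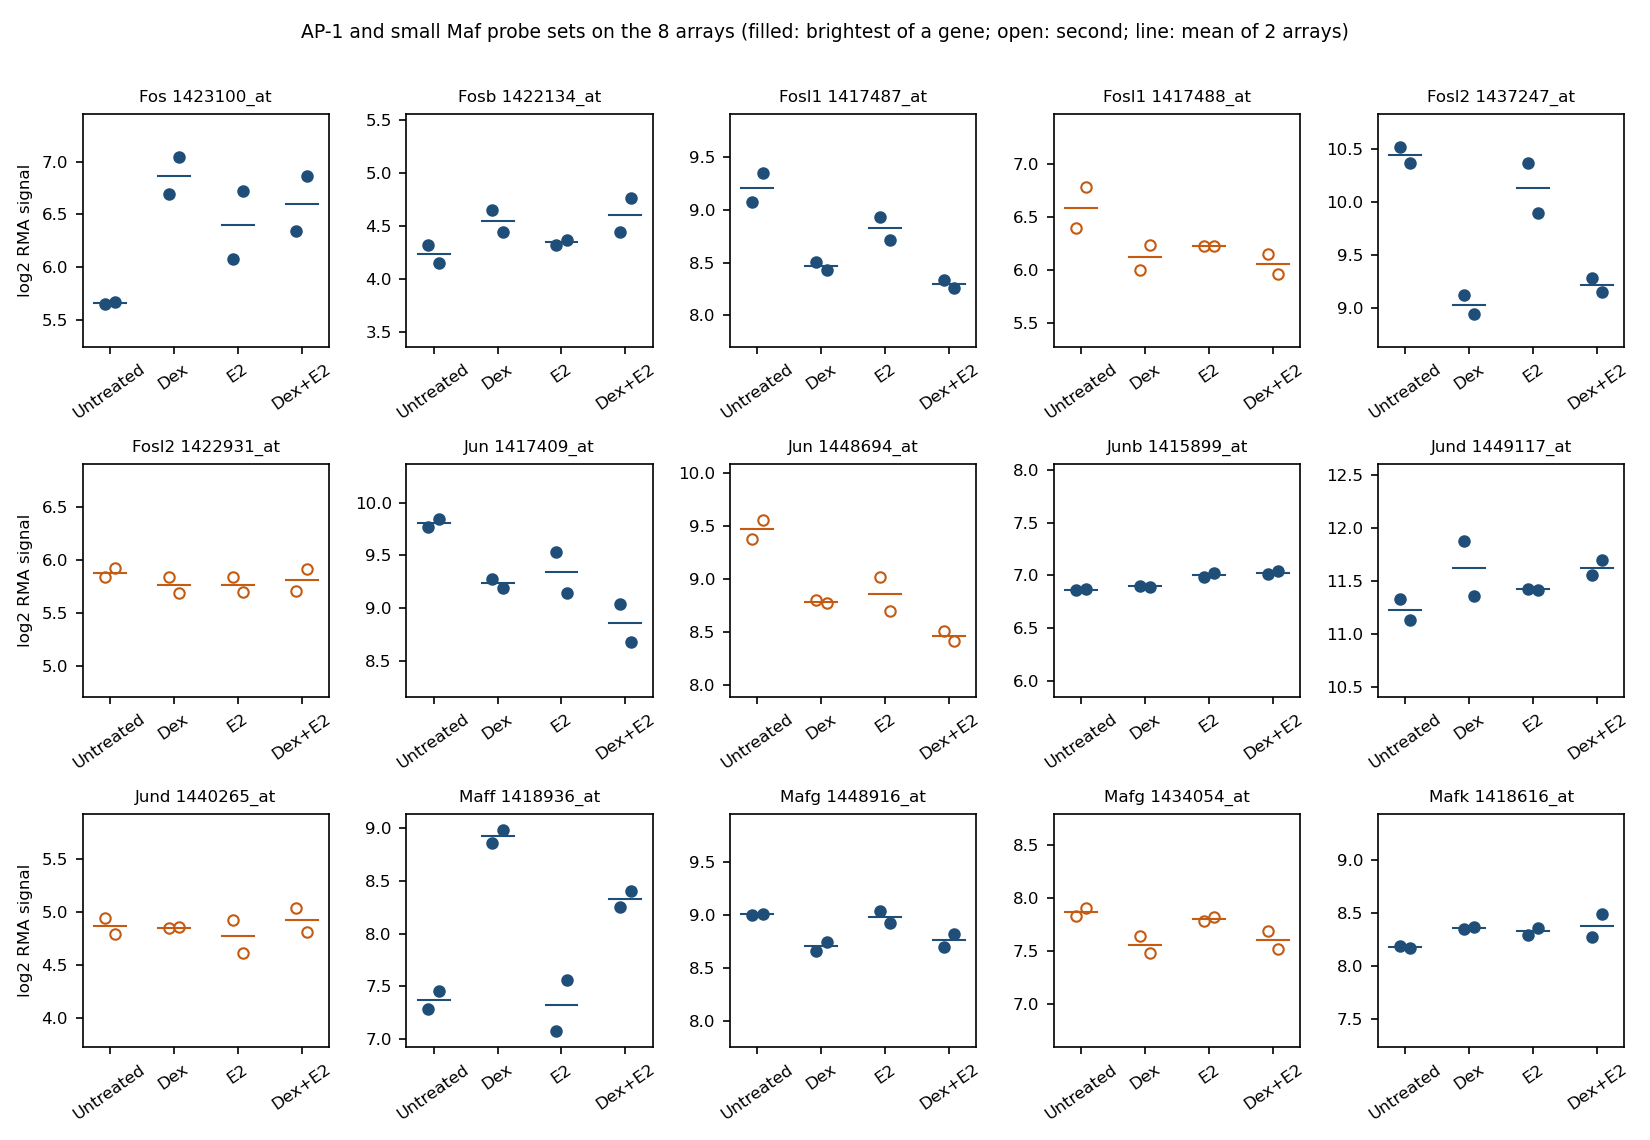
Log2 RMA signal (vertical axis, each panel spanning the same number of log2 units around its own centre) of the 15 probe sets on the 8 arrays, 2 per group. Points are arrays and lines are group means. Fosl2 1437247_at, Fosl1 1417487_at and both Jun probe sets sit highest in untreated cells, Fos sits lowest there, and Maff separates into Dex, Dex+E2 and the remaining groups.

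With E2 alone, limma called 0 of the 15 probe sets, against 0.0355% of all probe sets (16). At an unadjusted p under 0.05 the counts were 5 of 15 and 2439 of 45037. The largest differences were those of Fos, 0.74 ± 0.21 (limma adjusted p = 0.692), and of Jun on 1448694_at, -0.61 ± 0.12 (adjusted p = 0.2365). Jun on 1417409_at differed by -0.46 ± 0.14 and Fosl1 by -0.38 ± 0.11 on 1417487_at, also without a call. For Maff the difference was -0.05 ± 0.14, with a 95% interval from -0.37 to 0.27, and for Fosl2 it was -0.31 ± 0.14. The 2 E2 arrays differed by 0.648 for Fos, 0.473 for Fosl2 and 0.483 for Maff. The count stayed 0 without E2 replicate 2, the array whose description names GR-ChIP.

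With both hormones, Fosl2, Fosl1 and Jun fell and Maff rose against untreated cells. Limma called 5 of 15 probe sets, for 4 genes, against 0.844% of all probe sets. The 1 higher probe set stood against 0.471% of all, and the 4 lower ones against 0.373%. Jun fell on both probe sets, by 0.94 on 1417409_at (SE 0.14, adjusted p = 0.011) and by 1.01 on 1448694_at (SE 0.12, adjusted p = 0.00165). Fosl2 fell by 1.22 (SE 0.14, adjusted p = 0.00196), and Fosl1 by 0.91 (SE 0.11, adjusted p = 0.00316). Maff rose by 0.95 ± 0.14 (adjusted p = 0.011), a 1.94-fold increase. Fos differed by 0.94 ± 0.21 and missed the threshold (adjusted p = 0.109). The count was 3 without Untreated replicate 1, Untreated replicate 2 or Dex+E2 replicate 2, where Maff and Jun 1417409_at were lost (adjusted p up to 0.165 and 0.164). It was 6, Fos included, without E2 replicate 2 or Dex+E2 replicate 1, the arrays described as GR-ChIP, and likewise without E2 replicate 1. These comparisons with untreated cells share the untreated arrays.

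Set against E2 alone, the addition of Dex again raised Maff, by 1.01 ± 0.14 (limma adjusted p = 0.0219), and lowered Fosl2 (-0.92 ± 0.14, adjusted p = 0.0309). These were 2 of 15 probe sets against 0.335% of all. Fosl1 differed by -0.53 (adjusted p = 0.124) and the Jun probe sets by -0.48 and -0.40 (adjusted p = 0.275 and 0.268). For Fos the difference was 0.20 ± 0.21, with a 95% interval from -0.27 to 0.68. Both calls were lost without Untreated replicate 1, Untreated replicate 2, Dex replicate 1, Dex replicate 2, E2 replicate 1 or Dex+E2 replicate 2, with an adjusted p of up to 0.259 for Fosl2 and 0.228 for Maff. The count was 2 without E2 replicate 2 and 3 without Dex+E2 replicate 1.

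For the addition of E2 to Dex, 0 of the 15 probe sets were called, against 0.00666% of all (3). At an unadjusted p under 0.05 limma gave 3 of 15 and 2098 of all. Maff was lower with both hormones than with Dex alone on every array, by -0.59 ± 0.14 (95% interval -0.91 to -0.27), with an unadjusted p of 0.00206 and an adjusted p of 0.7165. Jun differed by -0.37 ± 0.14 and -0.33 ± 0.12 on its 2 probe sets (both adjusted p = 0.996). The intervals for Maff and Jun leave out 0, but the differences did not pass over the whole array. The count of the 15 stayed 0 without E2 replicate 2 and without Dex+E2 replicate 1. Without Dex+E2 replicate 1 the count over all probe sets was 168, Maff differed by -0.51 (adjusted p = 0.204), and Jun 1417409_at by -0.55 (adjusted p = 0.124).

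Whether the response to Dex differed with E2 present was tested as the Dex by E2 interaction, that is the Dex difference with E2 minus the Dex difference without it. It was called for 0 of 15 probe sets, against 0.00222% of all (1), and at an unadjusted p under 0.05 for 3 of 15 and 2459 of all. The 3 were Fos (-1.001 ± 0.30), Maff (-0.54 ± 0.20) and Fosl2 (0.50 ± 0.20), each with a limma adjusted p of 0.881. In each of the 3 the Dex difference was smaller in size with E2 than without it. For Fos the pair of values was 1.20 without E2 and 0.20 with it, and the 95% interval of the interaction ran from -1.67 to -0.33. The count of the 15 stayed 0 without either array described as GR-ChIP, while the count over all probe sets was 29 without Dex+E2 replicate 1. Without E2 replicate 2 the interaction was -0.68 for Fos, -0.30 for Maff and 0.26 for Fosl2, each with an adjusted p of 1, and without Dex+E2 replicate 1 it was -0.74, -0.46 and 0.43 (adjusted p = 0.300, 0.398 and 0.431).

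**Figure D3:**
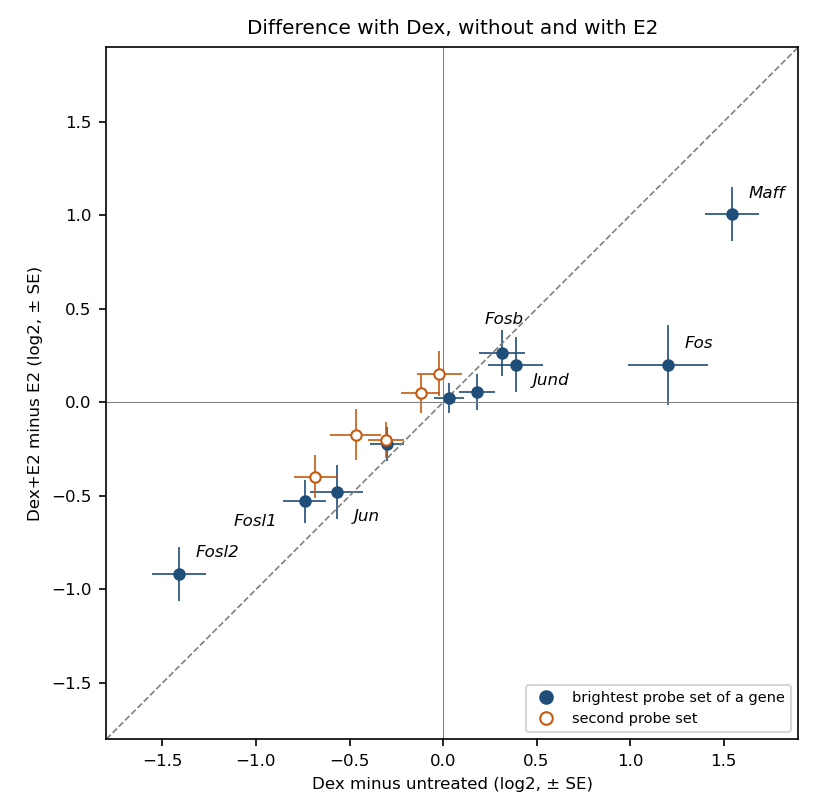
Difference with Dex in the absence of E2 (horizontal axis, log2) and in its presence (vertical axis, log2) for the 15 probe sets, with SE bars from limma and 2 arrays a group. The dashed line marks equal differences. Maff (1.55 and 1.01), Fosl2 (-1.41 and -0.92) and Fos (1.20 and 0.20) lie between the dashed line and the horizontal zero line, and 0 of 15 interactions passed the adjusted threshold.

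The mean effect of Dex, taken over both E2 states with 4 arrays on each side, was called for 5 of 15 probe sets, against 1.37% of all. Maff was higher by 1.28 ± 0.10 (limma adjusted p = 0.000106), Fosl2 lower (-1.17 ± 0.10, adjusted p = 0.00017), Fosl1 lower (-0.63 ± 0.081, adjusted p = 0.00234), and Jun lower on both probe sets (-0.52 ± 0.10 and -0.54 ± 0.081, adjusted p = 0.0327 and 0.00697). Fos, at 0.70 ± 0.15, missed the threshold (adjusted p = 0.0588). Mafg differed by -0.26 and -0.25 (adjusted p = 0.107 and 0.1555). The count was 6 without E2 replicate 2, 8 without Dex+E2 replicate 1, when Fos, Fosb and Mafg 1434054_at were called too, and 3 without Untreated replicate 2, when Jun was lost on both probe sets. The mean effect of E2 was called for 0 of 15, against 0.0533% of all (24), with 5 of 15 and 1907 of all at an unadjusted p under 0.05. The nearest was Jun 1448694_at at -0.47 ± 0.081 (adjusted p = 0.118), followed by Jun 1417409_at at -0.42 ± 0.10 (adjusted p = 0.443).

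Other genes of these pathways were taken from lists of known members and targets. The lists were chosen with earlier results of these data known, so their counts are descriptions. Of the other basic leucine zipper factors that pair with or resemble AP-1 and Maf proteins, 19 of 21 listed symbols were measured and 0 were called by limma in any of the 8 comparisons. Of their 46 probe sets, 6, 5 and 4 had an unadjusted p under 0.05 against untreated with Dex, E2 and Dex+E2, where the shares over all probe sets were 5.69%, 5.42% and 8.16% (2562, 2439 and 3676 of 45037). With E2, Jdp2, a repressor that pairs with Jun, differed by 0.41 ± 0.090 on its brighter probe set (limma adjusted p = 0.392). Its other probe set went the opposite way, by -0.18 (adjusted p = 0.952). Nfe2l2, which encodes Nrf2, differed by -0.08 with Dex on its brighter probe set. Of the kinases and serum response factor partners that act on immediate early genes, 22 of 30 listed symbols were measured. Limma called 0 of their 58 probe sets against untreated, with 7, 5 and 7 at an unadjusted p under 0.05 beside the same shares over all probe sets. It called 1 in the mean effect of Dex, against 1.37% of all, that of Rps6ka5 (a nuclear kinase of the MAP kinase pathways, -0.42 ± 0.086, adjusted p = 0.0472). For both lists the median change of the probe sets lay within 0.04 of 0 in each comparison with untreated.

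Textbook AP-1 target genes were the only one of these 4 lists with calls against untreated. Of 18 measured of 21 listed, Dex lowered 3 and raised 1 (limma calls). By probe set, 4 of 35 were lower and 1 was higher, against 0.349% and 0.575% of all probe sets, and 12 of 35 had an unadjusted p under 0.05, against 5.69% of all. Plau, the urokinase protease, fell by 1.37 on its brighter probe set (SE 0.16, limma adjusted p = 0.00151). Its dimmer probe set differed by -0.26 and was not called (adjusted p = 0.868), so the 2 disagreed in size. Plaur, its receptor, fell by 0.57 (SE 0.091, adjusted p = 0.0135). Hbegf, a growth factor of the EGF family, fell by 1.36 on its brighter probe set (SE 0.12, adjusted p = 0.000294). Fst (follistatin), an activin antagonist, rose by 0.62 ± 0.085 (adjusted p = 0.00515) on a second probe set, while its brighter one differed by 0.44 and was not called (adjusted p = 0.172). With both hormones Plau, Plaur and Hbegf fell again on these brighter probe sets (-1.42, -0.59 and -1.25, limma adjusted p = 0.0013, 0.0116 and 0.000613). The dimmer Plau probe set differed by 0.06 there (adjusted p = 0.947). The matrix metalloproteinases on the list, Mmp13, Mmp3, Mmp9 and Mmp10 among them, were not called with any treatment. Their levels were not examined, so an unchanged gene and an unexpressed gene cannot be told apart here. E2 alone called 0 of the 35 probe sets, against 0.0355% of all, with 7 at an unadjusted p under 0.05, against 5.42% of all. Vegfa, which encodes an angiogenic factor, was higher in the mean effect of E2 (0.70 ± 0.085, adjusted p = 0.023). The median change over the list's 35 probe sets was -0.015 with Dex. Antioxidant response element genes, the textbook targets of Nrf2 with small Maf partners, gave 0 calls against untreated among 15 measured of 18 listed, where 0.924%, 0.0355% and 0.844% of all probe sets were called with Dex, E2 and Dex+E2. Of their 30 probe sets 3, 0 and 1 had an unadjusted p under 0.05, against 5.69%, 5.42% and 8.16% of all. Their largest difference with Dex was that of Osgin1 (-0.64 ± 0.14, adjusted p = 0.0907).

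**Figure D4:**
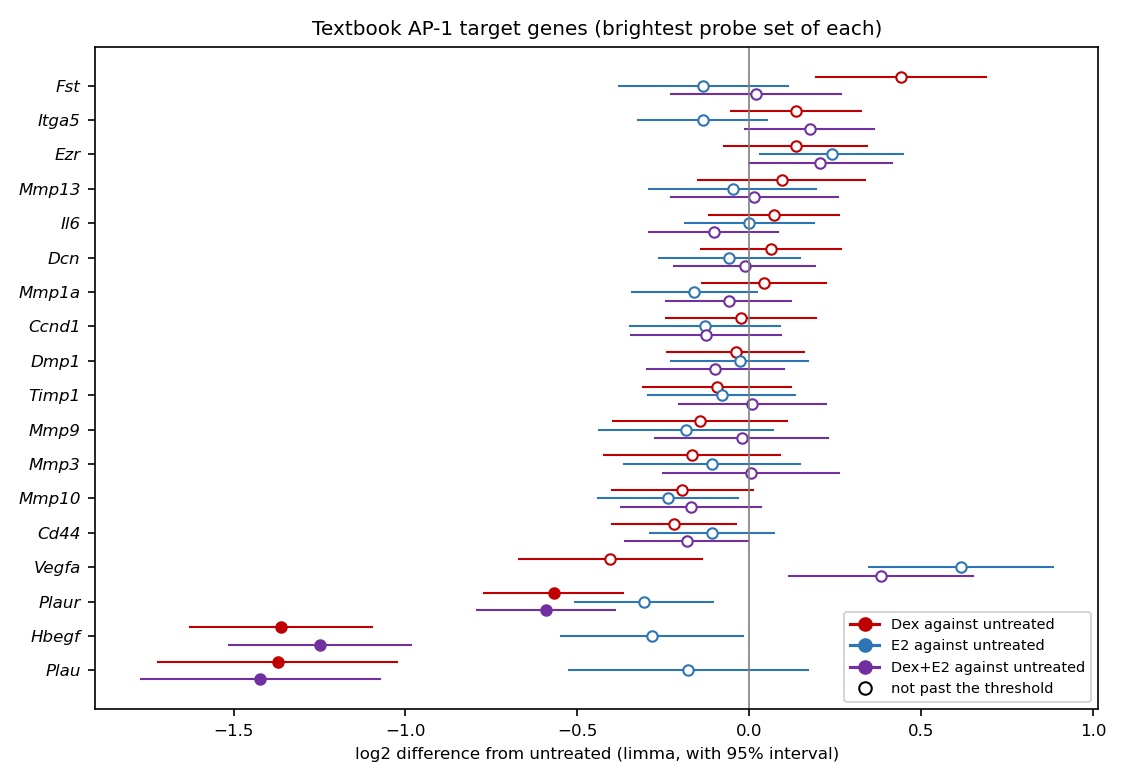
Log2 difference from untreated (horizontal axis) of the brightest probe set of each of 18 AP-1 target genes with Dex, E2 and Dex+E2, with limma's 95% interval and 2 arrays a group. Filled points passed an adjusted p of 0.05. Plau, Hbegf and Plaur are filled on the left with Dex and with Dex+E2, and Fst was called with Dex only on a second probe set that is not drawn.

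Genes whose pattern over the 8 arrays was most like that of a family member were sought among 120 genes whose group means spanned at least 1 log2 unit. This is a description over arrays that share groups and normalization. Fosl2 was most like Csf1 (Pearson r = 0.9873), Gdnf (0.9871) and Thbs1 (0.9868). Csf1 and Gdnf encode secreted growth factors and Thbs1 a matrix glycoprotein. Fosl1 was most like Ier3 (0.9911), Tgif1 (0.9886) and Socs5 (0.9822), and Jun was most like Ier5 (0.9787), Plk2 (0.963) and Ptx3 (0.9508). Ier3 and Ier5 are immediate early genes. Maff was most like Rgs2 (0.9844), a regulator of G protein signalling, Cebpd (0.9841), a transcription factor of the acute phase, and Orm3 (0.9704), an acute phase protein gene. For Fos the highest values were lower: Csrnp1 (0.9213), Niban1 (0.916) and Nfkbia (0.9148), the last encoding an inhibitor of NF-kB.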

How the data were processed

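The deposited table holds log2 values of 45101 probe sets on 8 arrays. Per the submitters' processing notes the authors made them with RMA in Affymetrix Expression Console, with no version given. RMA subtracts background and equalises the arrays' distributions, which compresses changes of dim probe sets and makes levels of different probe sets not comparable. Columns were assigned to samples by the sample titles. Of the probe sets, 34958 have 1 symbol in the platform annotation, 932 several and 9211 none. After 64 control probe sets were left out, 45037 were fitted in limma (version 3.58.1, R 4.3.3) as 4 group means on 8 arrays, with 4 residual and 6.29 prior degrees of freedom, and p-values were adjusted by Benjamini-Hochberg. Errors after ± are limma standard errors. The fit was checked on simulated data. Every probe set of the 10 genes is named. From each list, genes called against untreated were named, at most 5 by size. Bach1, Bach2, Jdp2, Nfe2l2, Elk3, Rps6ka5, Vegfa and Osgin1 were added after their values were seen. The genes and lists were chosen with earlier results of these data known. Alternatives were 1 probe set or the mean of probe sets per gene, a filter on dim probe sets, a trended and robust prior, arrays centred on their medians, only the arrays compared, a replicate block, and each array left out. The number of arrays, 2 a group, limits the precision, with a median standard error of 0.102.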

Additional observations from a re-analysis of the deposited data

How the results depend on the processing

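Of 17 called differences of single probe sets, 8 kept their call and direction under every alternative run: Fosl2 and Maff with Dex, Fosl1, Fosl2 and Jun 1448694_at with Dex+E2, and Fosl1, Fosl2 and Maff in the mean effect of Dex. The other 9 lost it under at least 1 alternative, and 0 reversed. Jun 1448694_at, the dimmer Jun probe set, was not tested in the settings with 1 value per gene. It therefore faced 13 alternatives with Dex+E2, against 15 for Fosl1 and Fosl2. The brighter Jun 1417409_at was among those that lost their Dex+E2 call. With 1 array left out, the lone array of its group is assumed to vary like the other groups, and the count of called probe sets ran from 2 to 5 with Dex, 0 to 0 with E2, 3 to 6 with Dex+E2 and 0 to 3 for Dex+E2 against E2, and from 3 to 8 and 0 to 1 for the mean effects of Dex and E2. For Dex+E2 against E2 the count was 1 with the mean of the probe sets of a gene, where Fosl2 lost its call, and 0 with only the arrays compared, which leaves fewer arrays for the spread. For the mean effect of E2 it was 1 (Jun 1448694_at) with a trended and robust prior. Over all probe sets the calls with Dex+E2 ran from 169 without Untreated replicate 1 to 1436 without Dex+E2 replicate 1, so the share called depends on single arrays.

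With a replicate block, the counts were 5 with Dex, 0 with E2, 6 with Dex+E2 (Fos added, adjusted p = 0.0227), 2 for Dex+E2 against E2, 0 for Dex+E2 against Dex and for the interaction, and 6 and 0 for the mean effects of Dex and E2. Over 45037 probe sets the replicate differences correlated at 0.16 (untreated and Dex), 0.312 (untreated and E2) and 0.235 (Dex and E2), and those of Dex+E2 correlated negatively with all 3 (-0.248, -0.105 and -0.194 with untreated, Dex and E2). Over all probe sets, same-numbered arrays therefore deviated together in 3 groups and oppositely in Dex+E2. Over the member probe sets alone, the Dex+E2 differences correlated at -0.274, 0.148 and 0.727 with those of untreated, Dex and E2, so they were not opposite throughout. The numbers were not taken as pairing, and a block by number may be misaligned for Dex+E2. Whether the arrays share a batch was not tested.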
